A study of Mus musculus with 6 samples.

Results

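Cell junction genes were examined in RNA of mouse lung endothelial cells (ECs): the claudins, the cadherins and a set of tight and adherens junction genes. A gene was a member if its symbol was a claudin (Cldn) or cadherin (Cdh) followed by a number, or 1 of a set of 14 others that includes Jam2, Jam3, F11r, Tjp1, Tjp3, Ocln, Marveld2, Marveld3, Esam, Pecam1, Ctnna1, Ctnnd1 and Jup. This gave 62 members of 24063 gene symbols: 25 claudins, 23 cadherins and 14 other genes. The rule used no measured value, and the groups compared were ECs after lung resection and ECs after sham surgery. The cells came from lungs of male C57BL6 mice, aged 8 weeks by the sample labels and older by the methods of the study, and were pulled out with magnetic beads coated with anti-CD31. PNX mice had their left lung removed, which is followed by growth of the remaining lung. Sham-operated mice had the chest opened without removal of a lung. Cells of both groups were taken 7 days after surgery, with 3 libraries per group and 2 mice pooled in each library. The labels name no transgene or mutation for either group. CD31 is the product of Pecam1, so 1 member is also the handle of the isolation.

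Junctions join neighbouring cells in 3 main ways. Adherens junctions are built on cadherins, whose tails bind catenins (Ctnna1, Ctnnb1, Ctnnd1 and Jup) that connect to actin. Tight junctions seal the gap between cells with claudins, occludin (Ocln) and the MARVEL proteins, held by scaffolds such as ZO-1 (Tjp1) and ZO-3 (Tjp3). Gap junctions let small molecules pass between cells through connexins. ECs are known for VE-cadherin (Cdh5) and claudin-5 (Cldn5), which set the barrier of the lung vessel wall. Alveolar and airway epithelium is known for E-cadherin (Cdh1), Cldn18, Cldn3, Cldn4 and Cldn7, and mesenchymal cells for N-cadherin (Cdh2) and cadherin-11 (Cdh11). The members were described in these classes: 5 endothelial, 19 epithelial, 2 mesenchymal and 8 shared by several cell types, with 13 other claudins and 15 other cadherins.

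The promoters of 4 claudins are shown because these genes carry the contrast of the report: Cldn5 is the claudin of vessels, and Cldn18, Cldn3 and Cldn7 are epithelial claudins that were lower after PNX. The letters are RefSeq sequence of GRCm38.p6, the 250 bases before the most upstream annotated start, 5′ to 3′ on the strand of the gene.
Cldn5, chr16:18776597-18776846, plus strand: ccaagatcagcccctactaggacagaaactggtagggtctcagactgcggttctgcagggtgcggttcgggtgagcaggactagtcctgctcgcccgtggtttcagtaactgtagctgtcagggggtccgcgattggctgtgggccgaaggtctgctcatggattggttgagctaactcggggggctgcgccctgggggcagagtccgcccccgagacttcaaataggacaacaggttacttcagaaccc
Cldn18, chr9:99717268-99717517, minus strand: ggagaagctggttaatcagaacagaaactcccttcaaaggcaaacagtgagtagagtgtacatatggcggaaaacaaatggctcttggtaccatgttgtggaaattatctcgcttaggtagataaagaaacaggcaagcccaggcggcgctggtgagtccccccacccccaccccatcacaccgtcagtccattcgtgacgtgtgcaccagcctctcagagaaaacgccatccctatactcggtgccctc
Cldn3, chr5:134985964-134986213, plus strand: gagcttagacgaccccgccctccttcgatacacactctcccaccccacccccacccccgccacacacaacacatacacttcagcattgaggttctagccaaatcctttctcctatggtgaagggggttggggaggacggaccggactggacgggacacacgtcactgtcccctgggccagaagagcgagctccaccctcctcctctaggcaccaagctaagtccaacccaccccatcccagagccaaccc
Cldn7, chr11:69964529-69964778, plus strand: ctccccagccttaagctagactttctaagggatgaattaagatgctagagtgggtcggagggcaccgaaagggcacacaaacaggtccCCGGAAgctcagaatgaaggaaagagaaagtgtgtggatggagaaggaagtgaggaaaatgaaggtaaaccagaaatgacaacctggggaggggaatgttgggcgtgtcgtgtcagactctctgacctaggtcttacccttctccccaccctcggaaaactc

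Capitals mark matches to 3 short motifs, searched on both strands: the E-box forms CACCTG and CATCTG, which Snail and Twist family factors can bind, and CCGGAA, the core bound by ETS factors. Cldn7 held CCGGAA at 1 place, and the other 3 windows held none of the motifs. Of 32851 mouse promoter windows of the same length, 17.2% held CACCTG, 14.4% held CATCTG and 12% held CCGGAA. Of the 39 members in that promoter table, 8 held CACCTG, 3 held CATCTG and 5 held CCGGAA in the window of at least 1 start. These counts are per gene and the percentages per window, so they cannot be compared directly. A match is a run of letters and not a binding site.

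Total counts ranged from 29526989 to 81282871 per library and were lowest in replicate 3 of each group. Replicates 1 and 2 of a group, which the labels mark as re-used, differed by little more than counting error (chi-square per degree of freedom 1.75 in sham and 1.57 in PNX, against 67.9 to 86.4 for pairs with replicate 3). The pair was therefore added up and treated as a single sample, so each group has n = 2 samples, one per deposit (earlier and later). The re-used replicates are called the earlier deposit here and replicate 3 the later one, names that the labels do not give. Levels are given as CPM, the count scaled to library size with TMM, for comparing libraries, or as TPM of the most counted transcript, a level per length, for comparing genes. Values are given for sham replicates 1, 2 and 3 and then for PNX replicates 1, 2 and 3.

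Without a term for the deposit, edgeR's quasi-likelihood test of the 4 samples called none of 16598 genes (0.0%), either by the thresholds of the study, an adjusted p below 0.01 with a log2 fold change beyond 1 in either direction, or by an adjusted p below 0.05 alone. The lowest adjusted p was 0.0720, and 2076 genes had an unadjusted p under 0.05. Of the 62 members 46 passed the filter on low counts, and among these 9 had an unadjusted p under 0.05 and the lowest adjusted p was 0.143 (Cdh2). By the thresholds of the study DESeq2 on these samples called 587 genes (3.42%) and 3 members, and edgeR on the 6 libraries as separate replicates 409 genes (2.51%) and 1 member. At an adjusted p below 0.05 alone these fits called 893 genes (5.21%) with 3 members and 2148 genes (13.2%) with 8 members. Adding the deposit as replicate block to the edgeR test of 4 samples gave calls for 849 genes (5.12%), of which 645 were higher (3.89%) and 204 lower (1.23%) in PNX. Among them were 3 members, all of them higher. The same block in DESeq2 gave 815 genes (4.97%) and 3 members. With no limit on fold change and an adjusted p below 0.05, the blocked edgeR test called 3584 genes (21.6%), 1912 of them higher (11.5%) and 1672 lower (10.1%). Here 12 members passed, 6 in each direction, beside 2518 genes (15.4%) and 12 members in blocked DESeq2. Below, "rose" and "fell" mean that a gene passed this second threshold in the blocked test, which has 1 residual degree of freedom, and adjusted p-values are from it unless another fit is named. The test moderates the spread of each gene with that of all genes. Its p-values therefore rest largely on other genes and not on that 1 degree alone.

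Junction RNA in the isolated cells was mainly endothelial. In sham the highest member was Cdh5 at a mean of 926 TPM, followed by Cldn5 at 924 TPM, Pecam1 at 892 TPM and Esam at 418 TPM. The order of Cdh5, Cldn5 and Pecam1 differed between libraries, so these neighbours were not separated by more than their spread. The catenins and scaffolds came next, with Ctnna1 at 391 TPM, Jup at 268, Ctnnd1 at 205 and Tjp1 at 156, and the junctional adhesion molecule F11r followed at 143 TPM. Cldn18, at 117 TPM, was the highest epithelial member and lay above Jam2 (51.9 TPM), Cdh1 (47.6 TPM) and Cdh11 (38.1 TPM). In all, 21 members had at least 10 TPM in sham and 18 had under 0.1 TPM.

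**Figure D1:**
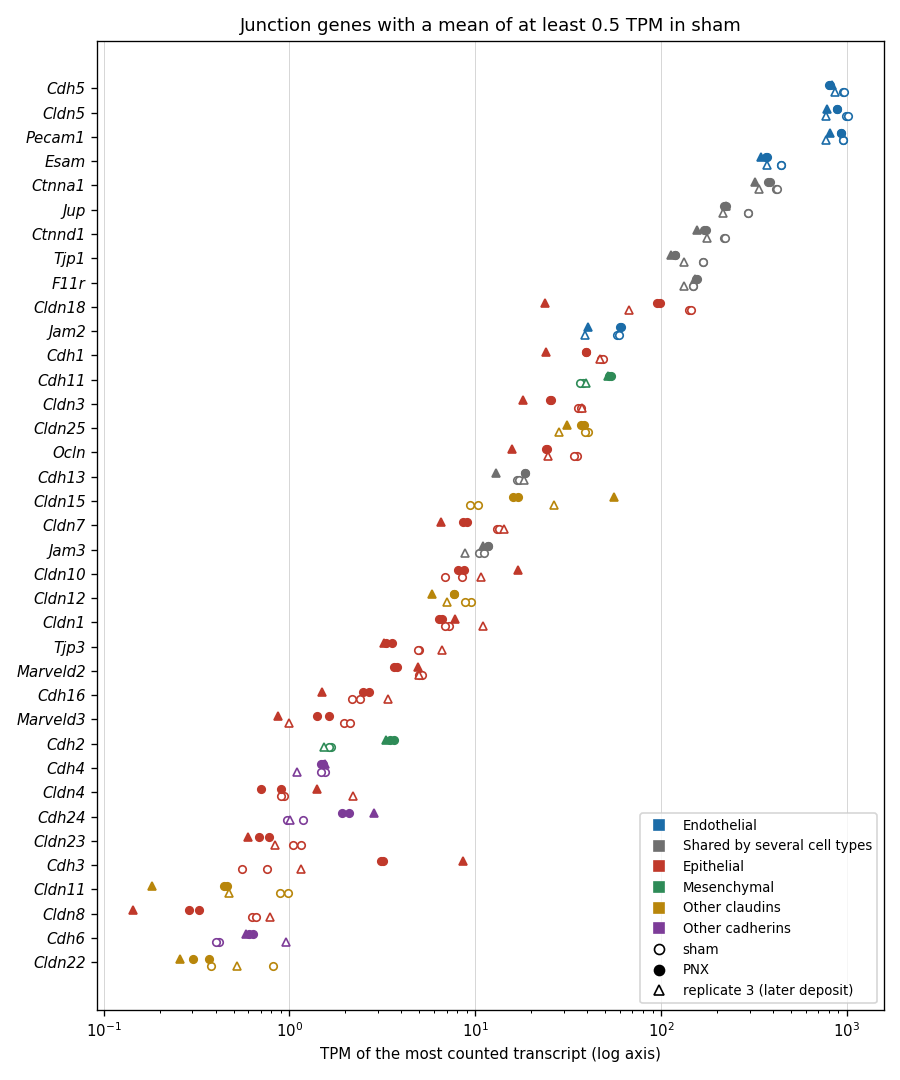
TPM of the most counted transcript (log axis) of 37 junction genes with a mean of at least 0.5 TPM in sham, ordered by that mean, with 1 symbol per library and colour for the class. Open symbols are sham, filled symbols PNX and triangles replicate 3. Cdh5, Cldn5 and Pecam1 stand at the top with sham means of 892 to 926 TPM, the filled symbols of Cdh3 and Cdh2 lie right of the open ones, and the PNX triangle of Cldn18 lies far left of its other symbols.

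Claudin RNA was mostly Cldn5. It held 78.7%, 78.9% and 78.6% of the summed claudin TPM in the sham libraries and 80.6%, 81.0% and 82.2% in the PNX libraries, so the 3 PNX values lay above the 3 sham values. Cldn18 held 6.86% to 11.2% of it in sham and 2.51% to 8.94% after PNX, and these ranges overlapped. Cdh5 held 88.2% to 89.6% of the summed cadherin TPM in sham and 86.4% to 88.4% after PNX. Cdh1 (4.46% to 4.78% in sham) and Cdh11 (3.42% to 4.05%) made up most of the rest. The member listed as Cldn25 (35.9 TPM in sham) is the gene that RefSeq now names Cldnd1, a claudin domain protein, and the member listed as Cldn26 is Tmem114.

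The 5 endothelial members did not pass the test. VE-cadherin, the adhesion molecule of endothelial adherens junctions, gave 1504, 1515 and 1377 CPM in sham and 1287, 1303 and 1303 CPM after PNX. All 3 PNX values of Cdh5 were below all 3 sham values, with 1443 ± 94.1 CPM in sham and 1299 ± 5.61 CPM in PNX (SD, n = 2), but the test gave no call and the log2 fold change was -0.15 ± 0.12 (SE, adjusted p = 0.412). Cldn5, which closes the endothelial tight junction, gave 555, 567 and 436 CPM in sham and 507, 506 and 434 CPM after PNX. Its groups overlapped, with a log2 fold change of -0.08 ± 0.10 (adjusted p = 0.647).

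Pecam1, which lines EC borders and was the target of the beads, gave 2486, 2494 and 2038 CPM in sham and 2470, 2479 and 2106 CPM after PNX, a log2 fold change of 0.02 ± 0.13 (adjusted p = 0.931). Esam, an adhesion molecule of endothelial tight junctions, gave 322, 324 and 276 CPM in sham and 280, 274 and 253 CPM after PNX (log2 fold change -0.17 ± 0.09, adjusted p = 0.229). Jam2, a partner of Jam3 at EC contacts, gave 110, 113 and 74.8 CPM in sham and 119, 117 and 76.5 CPM after PNX (log2 fold change 0.06 ± 0.08, adjusted p = 0.634). The 3 genes had overlapping groups, and in each of them replicate 3 of either group was the lowest library. The median log2 fold change of the class was -0.08, beside -0.01 over all genes tested.

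The sign of these small differences depended on the scale. Libraries were also scaled so that the summed count of 15 pan-endothelial genes that are no members (among them Kdr, Tek and Erg) was level. The genes weighed unequally in that sum, which adds counts over transcripts. In sham replicate 2 Eng (3084 CPM), Cav1 (2648), Egfl7 (2491) and Tek (1818) weighed most, while Erg had 104 CPM. On the TMM scale Eng, Cav1, Egfl7 and Tek were each lower after PNX. Only the sum was level: in the blocked test on that scale the single genes ran from -0.46 (Clec14a) to 0.88 (Nos3), and 9 of the 15 were higher. The median of all genes moved by 0.33 on the log2 scale, and Cdh5, Cldn5 and Esam turned from lower to higher. On that scale the 5 endothelial members had a median of 0.25, against 0.32 for all genes, and 2 of them passed an adjusted p of 0.05 in the blocked test: Pecam1 at 0.34 (adjusted p = 0.0468) and Jam2 at 0.39 (adjusted p = 0.0230). On this scale 38.3% of all genes passed that threshold and 36.3% were called higher, so a call there does not set these members apart. The summed CPM of the 15 genes was 10614 to 13910 in sham and 8795 to 10713 after PNX. In bulk RNA fewer cells of a type and less RNA per cell cannot be told apart.

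The catenins and scaffolds shared by several cell types also gave no call. Of 8 such members tested 2 were higher and 6 lower, with a median log2 fold change of -0.13. The pan-endothelial scale made 7 of them higher, beside 13687 of all 16598 genes. The largest difference was that of Tjp1, the scaffold ZO-1. Its sham libraries had 941, 930 and 748 CPM, and its PNX libraries 676, 674 and 628 CPM. Every PNX library of Tjp1 was below every sham library, with a log2 fold change of -0.36 ± 0.12 (adjusted p = 0.0636, and 0.0269 in DESeq2 with the block). On the pan-endothelial scale the blocked test gave Tjp1 a log2 fold change of -0.04 ± 0.09 (adjusted p = 0.761). Ctnnd1, p120-catenin, which keeps cadherins at the surface, showed the same order, with 2348, 2378 and 1933 CPM in sham and 1881, 1916 and 1670 CPM after PNX (log2 fold change -0.26 ± 0.12, adjusted p = 0.181).

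For F11r, a junctional adhesion molecule of epithelium, ECs and platelets, the log2 fold change was 0.14 ± 0.08, with groups that did not overlap and no call (adjusted p = 0.291). Ctnna1, alpha-catenin, ranged from 499 to 609 CPM in sham and from 464 to 569 CPM after PNX (log2 fold change -0.10 ± 0.10). Jup, plakoglobin, ranged from 433 to 584 CPM and from 441 to 453 CPM (log2 fold change -0.18 ± 0.13). Jam3 ranged from 6.92 to 8.68 CPM and from 8.58 to 9.35 CPM (log2 fold change 0.22 ± 0.13). On the pan-endothelial scale Ctnna1, Ctnnd1, Jup and Cdh13 turned from lower to higher, and F11r and Jam3 passed an adjusted p of 0.05 (log2 fold changes 0.46 and 0.56), 2 of the 8 beside the 36.3% of all genes called higher on that scale.

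Cdh13, T-cadherin, has no cytoplasmic tail and binds adiponectin, the hormone the study was about. It gave 15.1, 15.6 and 16.8 CPM in sham and 17.1, 17.2 and 11.6 CPM after PNX, so the PNX libraries lay on either side of sham. Within the earlier deposit the log2 ratio of PNX to sham was 0.13 and within the later one -0.50. The pooled difference was -0.16 ± 0.15 (adjusted p = 0.520), and the antisense transcripts Gm45721 and Gm45720 overlap the gene.

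Both mesenchymal cadherins rose. N-cadherin, which joins fibroblasts, pericytes and muscle cells to each other and to ECs, gave 3.06, 2.99 and 2.85 CPM in sham and 6.51, 6.81 and 6.04 CPM after PNX. The Cdh2 groups were far apart relative to their spread (2.94 ± 0.12 CPM in sham and 6.35 ± 0.44 CPM in PNX, SD, n = 2), the 2 deposits gave the same log2 ratio of 1.10, and the log2 fold change was 1.11 ± 0.16 (2.16-fold, adjusted p = 0.00315). Leaving out PNX replicate 1 raised the adjusted p of Cdh2 to 0.0125. Its antisense neighbour Gm15485 overlaps it, and counting was not stated to use strand.

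Cadherin-11, a cadherin of fibroblasts, gave 63.1, 61.3 and 66.8 CPM in sham and 88.8, 91.5 and 85.7 CPM after PNX. The Cdh11 groups did not overlap, and the log2 fold change was 0.45 ± 0.08 (1.36-fold, adjusted p = 0.00927), below the fold limit of the first threshold. Per length Cdh2 stayed rare beside VE-cadherin: the TPM ratio of Cdh2 to Cdh5 was 0.00169 to 0.00178 in sham and 0.00397 to 0.00449 after PNX, and that of Cdh11 to Cdh5 was 0.0382 to 0.0459 and 0.0622 to 0.0664. Of 7 fibroblast markers 5 moved in the same direction and 2 in the other. The summed CPM of the 7 was 1079 to 1275 in sham and 3419 to 4874 after PNX. The 5 that rose (Col1a1, Col1a2, Col3a1, Dcn and Lum) all encode matrix proteins, whereas Pdgfra fell and Tcf21 was lower without a call. The TPM ratio of Cdh2 to Col1a1 was 0.0159 to 0.0251 in sham and 0.00598 to 0.0109 after PNX, lower without overlap. Of the 7 smooth muscle and pericyte markers, Rgs5 rose and none fell, with summed CPM of 368 to 484 in sham and 347 to 483 after PNX. The part of these cells in the rise of Cdh2 and Cdh11 was not tested.

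The member with the lowest adjusted p was P-cadherin, a cadherin of basal epithelium and mesothelium. Cdh3 gave 1.76, 2.43 and 3.74 CPM in sham and 10.4, 10.2 and 27.4 CPM after PNX. The lowest PNX library was above the highest sham library, and replicate 3 was the highest of each group. Within the deposits the log2 ratio was 2.27 and 2.89, and the blocked log2 fold change was 2.56 ± 0.17 (5.91-fold, adjusted p = 9.21e-05). In the counts of the most counted transcript this was 221 in sham and 1129 after PNX, a ratio of 5.60 (4.84 to 6.49, exact 95% interval, which here and below covers only counting error).

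Cdh3 lies on chromosome 8 at 106510891 to 106557297 (GENCODE vM21, GRCm38), 46053 bases before the gene of E-cadherin on the same strand. The neighbours moved in opposite directions, since Cdh1 fell. The TPM ratio of Cdh3 to Cdh1 was 0.0116 to 0.0247 in sham and 0.0790 to 0.360 after PNX. Markers of mesothelium, the lining of the lung surface, also rose: all 5 of those found in the files (Msln, Wt1, Upk3b, Upk1b and Lrrn4), with a summed CPM of 98.8, 100 and 304 in sham and 260, 262 and 759 after PNX, again highest in replicate 3. The TPM ratio of Cdh3 to Msln was 0.00843 to 0.0207 in sham and 0.0197 to 0.0226 after PNX. The part of mesothelial cells in the rise of Cdh3 was not tested.

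Cldn15, a claudin that forms cation pores in the gut, was chosen after its values were seen. It gave 6.85, 7.54 and 19.8 CPM in sham and 12.7, 11.9 and 40.7 CPM after PNX. The groups overlapped across deposits but not within them, where the log2 ratios were 0.75 and 1.07, and it rose by 0.91 ± 0.11 in the blocked test (1.88-fold, adjusted p = 0.00175), while the test without block gave an adjusted p of 0.681. The TPM ratio of Cldn15 to Msln was 0.195 to 0.280 in sham and 0.115 to 0.128 after PNX. Whether Cldn15 follows the mesothelial markers was not tested.

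**Figure D2:**
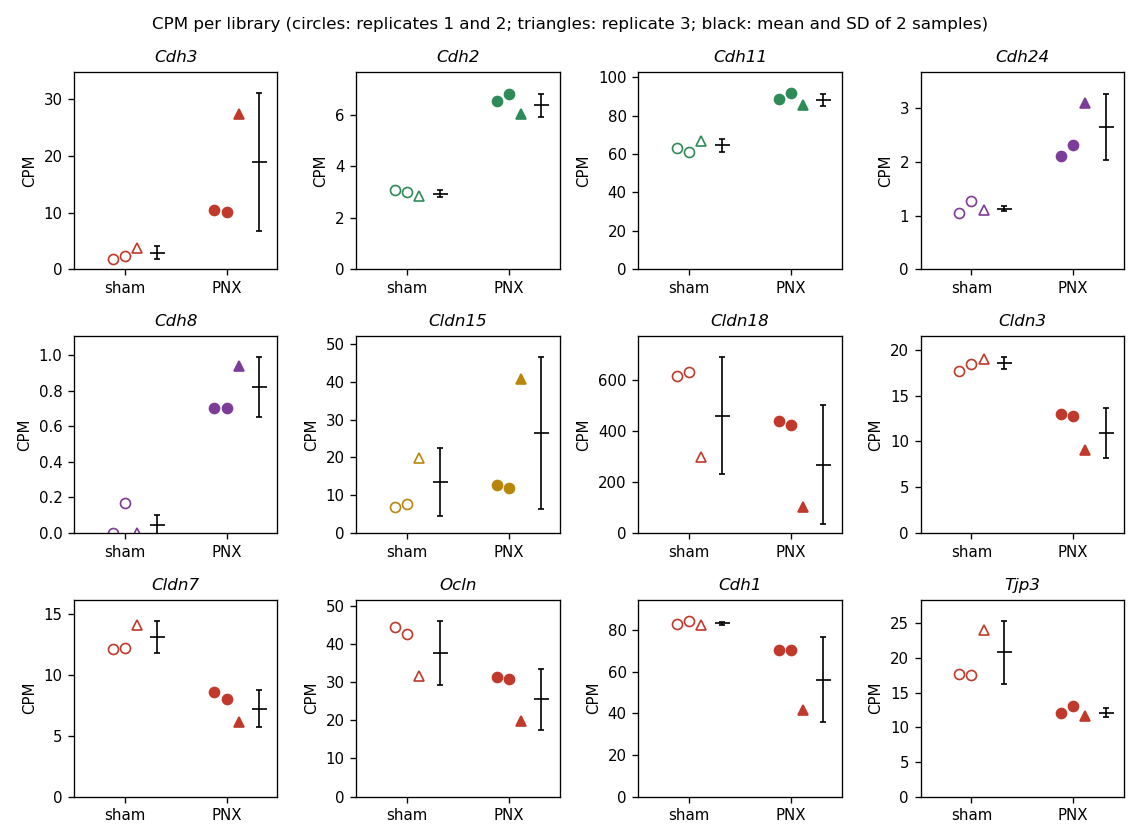
CPM of the 12 members at an adjusted p under 0.05 in the blocked test, by group, from 0 on each axis, with open symbols for sham, filled for PNX, circles for replicates 1 and 2 and triangles for replicate 3. Black marks are the mean ± SD of 2 samples. Cdh2 has PNX values from 6.04 to 6.81 above sham values from 2.85 to 3.06, and in Cldn18 and Cldn15 the deposits differ more than the groups.

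Most of the epithelial members were lower after PNX on the TMM scale. Of 19, 17 were tested, of which 3 were higher and 14 lower, with a median log2 fold change of -0.40, and 6 fell while 1 (Cdh3) rose. Over all genes tested 10.1% fell and 11.5% rose. On the pan-endothelial scale 7 of the 17 were higher, the median was -0.09 against 0.32 for all genes, and none of the 6 passed an adjusted p of 0.05. E-cadherin, the core of epithelial adherens junctions, gave 82.9, 84.5 and 82.7 CPM in sham and 70.6, 70.5 and 41.7 CPM after PNX. The sham libraries of Cdh1 lay within 2 CPM of each other, every PNX library was below them, and PNX replicate 3 was the lowest. It fell by 0.60 ± 0.15 on the log2 scale (adjusted p = 0.0301), and its log2 ratio was -0.27 within the earlier deposit and -0.96 within the later. Without sham replicate 2 the adjusted p of Cdh1 was 0.0552, and without PNX replicate 1 it was 0.0813.

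Cldn18, whose lung form seals alveolar epithelium, gave 614, 631 and 298 CPM in sham and 440, 425 and 103 CPM after PNX. Its groups overlapped because the deposits differed more than the groups (460 ± 230 CPM in sham and 268 ± 233 CPM in PNX, SD, n = 2). Within the deposits the log2 ratio was -0.55 and -1.50. In the blocked test it fell by 1.02 ± 0.20 (adjusted p = 0.0131), but DESeq2 with the block gave an adjusted p of 0.330. In this test it had the lowest log2 fold change of the members with a mean of at least 50 counts, followed by Cldn7, Cldn3 and Tjp3, whereas without the block Cldn7 was lowest. The antisense gene Gm16004 overlaps Cldn18.

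Cldn3 and Cldn7, sealing claudins of airway and alveolar epithelium, did not overlap between groups. Cldn3 gave 17.8, 18.5 and 19.0 CPM in sham and 13.0, 12.8 and 9.02 CPM after PNX and fell by 0.75 ± 0.14 (adjusted p = 0.0103). Cldn7 gave 12.2, 12.2 and 14.1 CPM in sham and 8.57, 8.06 and 6.14 CPM after PNX and fell by 0.84 ± 0.16 (adjusted p = 0.0108). For both claudins the difference was larger in the later deposit (log2 ratios of -1.05 and -1.17) than in the earlier one (-0.51 and -0.58). Wbscr25 overlaps Cldn3 on the opposite strand.

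Occludin, a transmembrane protein of tight junctions, gave 44.6, 42.6 and 31.6 CPM in sham and 31.4, 30.9 and 19.7 CPM after PNX. The lowest sham library lay just above the highest PNX library, and Ocln fell by 0.58 ± 0.09 (adjusted p = 0.00478). Tjp3, the scaffold ZO-3 of epithelium, gave 17.6, 17.5 and 24.1 CPM in sham and 12.1, 13.1 and 11.7 CPM after PNX and fell by 0.74 ± 0.14 (adjusted p = 0.00917). The gene Apba3 overlaps Tjp3. Cldn4, whose gene lies 39279 bases from Cldn3, had 0.67, 0.64 and 1.60 CPM in sham and 0.51, 0.66 and 1.01 CPM after PNX, with overlapping groups and a log2 fold change of -0.40 ± 0.29 (adjusted p = 0.367).

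Other epithelial members, chosen after their values were seen, gave no call on the TMM scale. Cldn8 had counts of 116 in sham and 45 after PNX over all libraries, a ratio of 0.425 with an exact 95% interval of 0.294 to 0.604, and an adjusted p of 0.0512. Cldn10 differed by 0.42 ± 0.14 (adjusted p = 0.0785), and on the pan-endothelial scale by 0.75 with an adjusted p of 0.0142. Cdh16, a cadherin of kidney and thyroid epithelium, had log2 ratios of 0.19 (earlier deposit) and -1.15 (later deposit). Cldn1, Cldn23, Cdh26, Marveld2 and Marveld3 lay between -0.56 and -0.17, with adjusted p-values from 0.168 to 0.716. Cldn2 had at most 0.202 CPM in any library and a log2 fold change of 0.87 ± 0.74 (adjusted p = 0.445).

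Markers of epithelial cells moved with these members. All 8 alveolar type 2 markers fell, with summed CPM of 5232, 5261 and 5634 in sham and 3430, 3403 and 1889 after PNX. Of the 7 alveolar type 1 markers 5 fell and Pdpn, which lymphatic ECs also express, rose (summed CPM 5358, 5416 and 2298 in sham, 4012, 4057 and 1133 after PNX). All 5 club cell markers and all 5 ciliated cell markers fell. Of 6 general epithelial markers Epcam and Nkx2-1 fell and 4, all keratins, gave no call, with summed CPM of 253 to 271 in sham and 240 to 282 after PNX. None of the markers in these lists was at 0 in every library. The TPM ratio of Cldn18 to Ager, a type 1 marker, was 0.183 to 0.229 in sham and 0.162 to 0.238 after PNX. The TPM ratio of Cdh1 to Sftpc, a type 2 marker, was 0.00595 to 0.00658 in sham and 0.00842 to 0.00935 after PNX, and these ranges did not overlap. The part of epithelial cells among the isolated cells in the fall of these members was not tested.

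**Figure D3:**
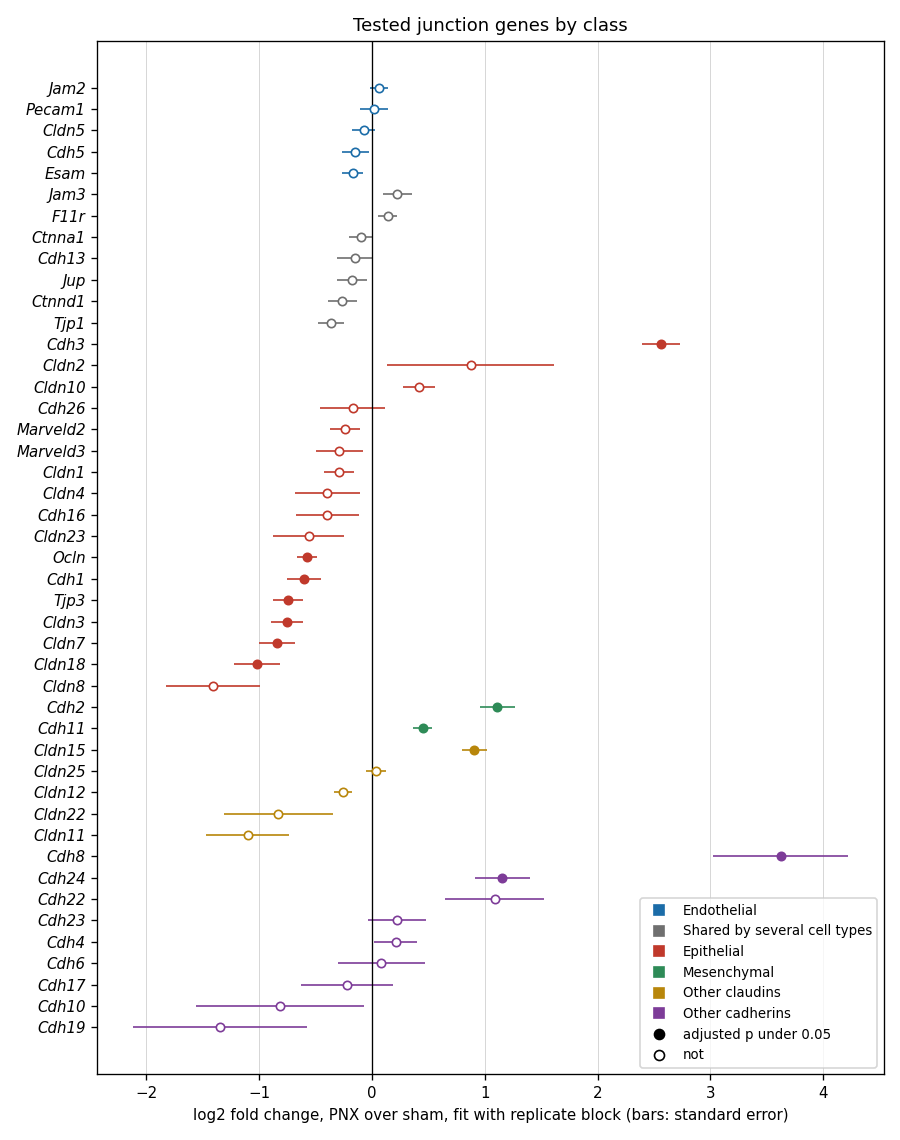
Log2 fold change of PNX over sham on the TMM scale with its standard error for 45 of the 46 tested junction genes, grouped and coloured by class, from the blocked edgeR test. Filled points have an adjusted p under 0.05. The endothelial points lie between -0.17 and 0.06 and change sign for Cdh5, Cldn5 and Esam on the pan-endothelial scale, 6 filled epithelial points lie between -1.02 and -0.58, and Cdh3 at 2.56 and Cdh8 at 3.62 lie farthest to the right.

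Among the other cadherins Cdh8 and Cdh24 rose. Cdh8, a cadherin best known from neurons, was near the detection limit: its most counted transcript had 0, 4 and 0 counts in sham and 13, 14 and 7 counts after PNX. The ratio over all libraries was 9.31 with an exact 95% interval of 3.32 to 36.1, and in the later deposit, where sham had 0 counts, it was at least 2.63-fold higher against a floor of 3 counts. The fitted log2 fold change of 3.62 ± 0.60 (adjusted p = 0.00633) depends on the prior count and on sham replicate 2, without which it was 8.78. The fit used counts summed over 4 transcripts of Cdh8, a mean of 23 per library. Reads that these transcripts share appear to enter more than once, so the adjusted p can overstate the evidence. Without sham replicate 1 the adjusted p of Cdh8 was 0.0410 and without PNX replicate 1 it was 0.0267. Gm15679, on the opposite strand, overlaps it.

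Cdh24, a cadherin that binds catenins, gave 1.04, 1.27 and 1.10 CPM in sham and 2.11, 2.30 and 3.08 CPM after PNX. Its groups did not overlap, and it rose by 1.16 ± 0.24 on the log2 scale (2.23-fold, adjusted p = 0.0157), with a count ratio of 2.07 and an exact 95% interval of 1.75 to 2.45. The gene Gm17606 overlaps it on the other strand. Cdh22, chosen after its values were seen, had a count ratio of 2.42 (1.64 to 3.62) and an adjusted p of 0.126. Of the rest, Cdh4 (log2 fold change 0.21 ± 0.19), Cdh6 (0.08 ± 0.39) and Cdh23 (0.22 ± 0.26) were on the higher side and Cdh10 (-0.82 ± 0.75), Cdh17 (-0.22 ± 0.41) and Cdh19 (-1.35 ± 0.77) on the lower, each with an adjusted p above 0.25 and within 2 standard errors of 0. Among the other claudins Cldn11 (log2 fold change -1.10 ± 0.37), Cldn12 (-0.26 ± 0.08) and Cldn22 (-0.83 ± 0.48) gave no call, with adjusted p-values of 0.0745, 0.0640 and 0.264, and the Cldn25 row (Cldnd1) differed by 0.04 ± 0.09.

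The remaining 16 members were not tested, and none of them had more than 8 counts in any library. Among these Cldn14, Cldn16, Cldn17 and Cdh7 had 0 counts in all 6 libraries. The others were Cldn6, Cldn9, Cldn13, Cldn19, Cldn20, Cldn24, Cldn26, Cdh9, Cdh12, Cdh15, Cdh18 and Cdh20. With 0 counts, up to 3 counts in a library are allowed by counting error alone.

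Over all members, 3 passed the first threshold with the block and 12 the second, as given above beside the shares of all genes. Across the 6 libraries 7 of the 46 tested members had every PNX library above every sham library and 15 had every PNX library below, beside 18.8% and 17.9% of the 16598 genes tested. On the TMM scale 17 of the 46 tested members were higher and 29 lower (median log2 fold change -0.17, and -0.01 over all genes). On the pan-endothelial scale 31 of the 46 were higher, beside 13687 of all 16598 genes. The split of claudins was 4 higher and 11 lower and that of cadherins 9 higher and 8 lower on the TMM scale. On the pan-endothelial scale 7 of 15 claudins and 13 of 17 cadherins were higher, to be read beside the same count over all genes. In 32 of the 46 the direction was the same in both deposits.

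**Figure D4:**
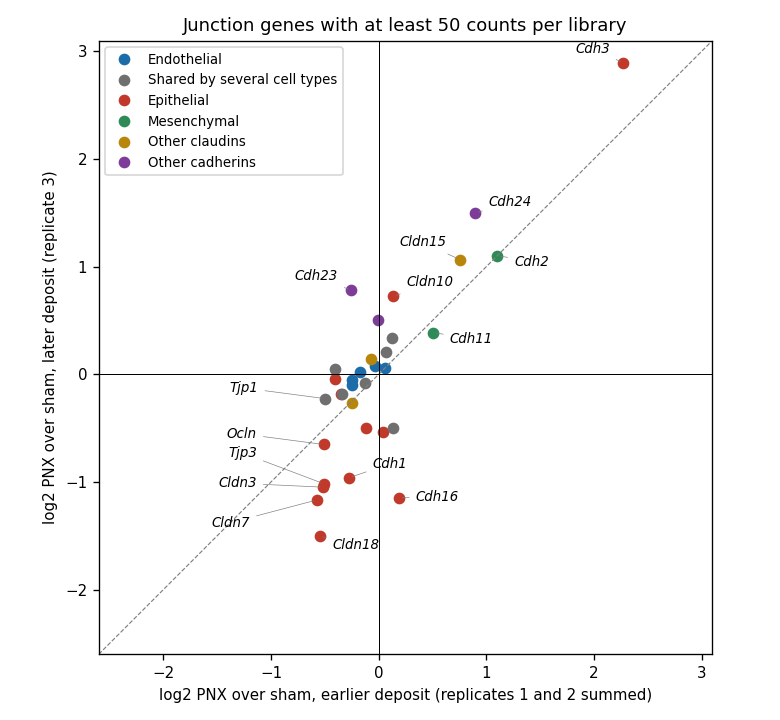
Log2 ratio of PNX to sham (TMM-scaled CPM with a prior count of 2) within the later deposit against that within the earlier deposit for 33 tested members with a mean of at least 50 counts per library, coloured by class, with a dashed line of equality. Of these, 24 have the same sign in both. Counts for the limit of 50 are summed over transcripts, so reads that transcripts share can enter more than once. Cdh2 lies on the line at 1.10, Cldn18, Cdh1, Cldn3 and Cldn7 lie below it, and Cdh16 has opposite signs at 0.19 and -1.15.

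Junction genes outside the rule were taken from a list of 79, of which 76 were found in the files and 70 tested. With the block 4 rose past the first threshold and none fell past it, and at an adjusted p under 0.05 12 rose and 17 fell, on the TMM scale. Over all genes tested 3.89% were higher and 1.23% lower at the first threshold. At the second 11.5% of all genes were higher and 10.1% lower, and these shares also stand beside the lists below. Beta-catenin, the partner of VE-cadherin, gave 1241, 1242 and 1044 CPM in sham and 1279, 1269 and 1092 CPM after PNX (Ctnnb1, log2 fold change 0.05 ± 0.11, adjusted p = 0.784).

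Gap junction genes moved mostly upward on the TMM scale: of 11 tested 8 were higher, beside 8003 of all 16598 genes, and 6 rose and none fell. On the pan-endothelial scale 9 of the 11 were higher, beside 13687 of all 16598 genes, so that count does not set them apart. Gjb5, a connexin of skin and other epithelia, gave 0.310, 0.181 and 0.594 CPM in sham and 2.61, 2.94 and 6.04 CPM after PNX. Replicate 3 was the highest of each group. Its counts were 25, 13 and 20 in the sham libraries and 194, 193 and 180 in the PNX libraries. Gjb5 rose by 3.41 ± 0.23 on the log2 scale (adjusted p = 0.000106), with no overlap between the groups. Over all libraries Gjb5 gave a count ratio of 10.7 with an exact 95% interval of 8.16 to 14.3. Gja1, Gjc1 and Panx1, chosen after their values were seen, rose by 0.72, 0.51 and 0.76. Gja1, connexin 43, which couples ECs, fibroblasts and alveolar cells, gave 34.3, 35.6 and 26.3 CPM in sham and 50.2 CPM in each PNX library.

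Of 21 tight junction scaffold and polarity genes tested 3 rose and 9 fell. Ildr2, of the angulin family that seals the corners where 3 cells meet, gave 4.60, 4.93 and 11.6 CPM in sham and 23.9, 24.0 and 49.8 CPM after PNX. It rose by 2.22 ± 0.10 (4.67-fold, adjusted p = 2.09e-05) with no overlap between the groups. Of 13 adherens junction partners 1 rose and 2 fell, and of 8 desmosome genes 1 rose and 2 fell.

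Of 17 other endothelial border genes Mcam rose and 4 (Plvap, S1pr1, Amotl2 and Radil) fell, and these genes and Ptprb were chosen after their values were seen. Plvap, which forms the diaphragms of fenestrae and caveolae, gave 749, 764 and 500 CPM in sham and 477, 488 and 319 CPM after PNX and fell by 0.65 ± 0.10 (adjusted p = 0.00434). Ptprb, the phosphatase VE-PTP that binds VE-cadherin and is from the list of adherens junction partners, gave 1538, 1540 and 1240 CPM in sham and 939, 921 and 732 CPM after PNX and fell by 0.74 ± 0.11 (adjusted p = 0.00405). S1pr1, a receptor that tightens EC junctions, fell by 0.58 ± 0.11 (adjusted p = 0.0124) and Amotl2, which links VE-cadherin to actin, by 0.73 ± 0.08 (adjusted p = 0.00107). Radil fell by 0.53 ± 0.13 (adjusted p = 0.0283), with groups that overlapped. On the pan-endothelial scale Ptprb, Plvap and Amotl2 still passed an adjusted p of 0.05, with log2 fold changes of -0.42, -0.33 and -0.40. S1pr1 at -0.25 and Radil at -0.21 did not (adjusted p = 0.0811 and 0.365).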

How the data were processed

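RNA of anti-CD31 bead-isolated lung ECs was sequenced by the authors from TruSeq stranded mRNA libraries, aligned to mm10 (STAR in the submitters' processing notes) and counted per RefSeq transcript on the Basepair platform. For each library the authors deposited a count for each of 33068 transcripts, with FPKM and TPM beside it. The deposited counts are whole and not normalized. The authors scaled FPKM and TPM by transcript length and library. FPKM was not used, and TPM entered no test. How reads were counted, whether by strand and on which annotation release, is not given in the sources used here. Of 33 further transcripts of members with several, 23 had counts within 5% of the most counted one, so reads that transcripts share appear to be counted on each, and summed CPM multiplies them.

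Counts were summed per symbol, for the tests and for the limit of at least 50 counts per library. Replicates 1 and 2 of a group were compared by chi-square over genes with 1 transcript and at least 20 counts and then summed to 1 sample. That the 2 mice of a library differ from those of another is not stated for replicates 1 and 2. The p-values measure the spread between these samples, moderated for each gene with that of all genes. The quasi-likelihood test of edgeR 4.0.16 (R 4.3.3) was run with TMM scaling and filterByExpr, adjusting by Benjamini-Hochberg over 16598 genes, without and with the deposit as replicate block. The block pairs the samples by the re-used mark of the labels, taken here as the deposit. Across 14737 genes that are no members the later minus the earlier deposit in sham went with the same difference in PNX (r = 0.699 by Pearson and rho = 0.724 by Spearman, as a description). Across 37 members the values were r = 0.667 and rho = 0.472. DESeq2 1.42.0 and limma 3.58.1 (voom) were alternatives, with other scalings, filters, the most counted transcript alone and each library left out. Standard errors are log2 fold changes divided by the square root of F. Exact intervals are Clopper-Pearson at 95% and cover counting error only. The fits without and with the block were also run on simulated counts that had the same deposit effect in both groups. As the block assumes just that, the run cannot show whether the blocked calls hold in these data. Positions and overlaps are from GENCODE vM21.

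Members, classes, lists and the rule for named genes were chosen with earlier results of these data known. Named were the endothelial, mesenchymal and shared classes, Cdh1, Cldn18, Cldn3, Cldn4, Cldn7 and Ocln, any other member called by edgeR, the 3 highest and 3 lowest fold changes among members with a mean of at least 50 counts, and, of the other junction genes, those called and Ctnnb1. Of the lists, lymphatic (summed CPM 490 to 1081 in sham, 559 to 777 in PNX), leukocyte (2604 to 4966 and 3146 to 4419), platelet (34.0 to 49.7 and 46.5 to 50.6) and proliferation markers (57.5 to 103 and 506 to 774, all 5 higher) are given here only. A few items are not reported here by name, though counts over lists include them.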

Additional observations from a re-analysis of the deposited data

How the results depend on the processing

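With n = 2 samples per group the test without block called no member, and this held with limma-voom, each scaling, each filter, the most counted transcript alone and each library left out (0 to 0 members under either threshold). Other fits gave more. At the first threshold (adjusted p under 0.01 and a fold limit) the replicate block gave 3 members, the 6 libraries as separate replicates 1, those with the replicate block 3 and those with the deposit as a covariate 6, DESeq2 3, DESeq2 with the replicate block 3, DESeq2 on 6 libraries 4 and limma-voom with the replicate block 4. With the replicate block, scaling by DESeq2 size factors, by the upper quartile or by library size alone and the most counted transcript each gave 2 and the pan-endothelial scale 3. Leaving out single libraries with the replicate block gave 1 to 3 members. At an adjusted p under 0.05 the same fits gave, in that order, 12, 8, 20, 28, 3, 12, 10 and 14 members, then 11, 11, 11, 12 and 12, and 11 to 13 without single libraries. The replicate block could not be fitted without replicate 3 of a group. The 12 members on the pan-endothelial scale were all higher, as were 6026 of the 6359 genes called on it (94.8%), beside 6 higher and 6 lower members on the TMM scale. Over all genes the calls at the first threshold with the replicate block were 645 higher and 204 lower with TMM, 540 and 84 with DESeq2 size factors, 548 and 98 with the upper quartile, 550 and 79 with library size alone, and 833 and 10 on the pan-endothelial scale.

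Of 836 values of 27 named genes under alternatives, 21 changed sign, in 11 genes, none of them called on the TMM scale. On the pan-endothelial scale, without and with the replicate block, the log2 fold changes were 0.13 and 0.17 (Cdh13), 0.18 and 0.17 (Cdh5), 0.25 and 0.25 (Cldn5), 0.22 and 0.22 (Ctnna1), 0.061 and 0.061 (Ctnnd1), 0.15 and 0.15 (Esam) and 0.15 and 0.15 (Jup). The other sign changes came from leaving out replicate 3 of a group. Over the libraries left out without block, the log2 fold change ran from -0.164 to 0.084 (Cdh13), -0.26 to 0.012 (Cldn5) and -0.24 to 0.021 (Ctnna1), the highest without PNX replicate 3. It ran from -0.92 without PNX replicate 3 to 0.22 without sham replicate 3 for Cldn4. It ran from -0.19 to 0.33 (Jam2), -0.12 to 0.12 (Pecam1) and -0.072 to 0.15 (Ctnnb1), the lowest without sham replicate 3. The other 16 genes kept their direction. The causes were not tested. Depth limits Cdh8, Cldn8, Cdh22 and the 16 members not tested.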
